A study of Mus musculus with 15 samples.

Results

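Clec10a and 9 other genes for C-type lectins of macrophages (Mgl2, Mrc1, Clec4n, Clec4d, Clec4e, Clec7a, Clec4a2, Cd209a and Clec5a) were followed in alveolar macrophages, the resident phagocytes of the airspaces. The members were taken by symbol: a probe counted where the platform annotation gave it exactly 1 of these 10 symbols. That left 9 genes with 1 probe each, of 12909 gene symbols on 17195 probes, and Mgl2 is not analysed here. All 9 entered the test, for which a feature needed a value on 3 or more arrays in each group, and 13273 features did so.

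Total RNA of mouse alveolar macrophages was hybridised on 15 arrays in 2 colours, each against a common reference RNA that the labels call Mac Ref. One group of 5 arrays held macrophages of b6-/-TGFb+/+Dox mice, which lack the integrin beta6 subunit and had TGFb1 added, here called beta6 null with TGFb1. The other groups were 5 arrays of b6-/-Dox mice (beta6 null) and 5 arrays of b6+/+Dox mice (wild type). Mice of all 3 groups were treated with doxycycline, the strain and age are not given in the labels, and neither are the promoter behind the added TGFb1 and the cells that made it. Wild type mice with added TGFb1 were not measured. Nothing in the labels says that arrays of a group hold separate mice, so each p-value measures only the spread between these samples.

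C-type lectins carry a fold that in many members binds sugars with the help of calcium. On macrophages and dendritic cells they take up glycosylated cargo and sense fungi and mycobacteria, and several signal through the kinase Syk, either by a motif of their own or through an adaptor such as the Fc receptor gamma chain or DAP12. The integrin alphavbeta6 of lung epithelium activates latent TGFb, a growth factor on which the identity of alveolar macrophages depends.

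Values below are log ratios to the reference, taken as log2 and centred on each array's median, so that 0 is the level of the array's middle probe. Neither the base nor the direction of the ratio is stated in the files. Sample over reference is the likely direction, because Mmp12, a metalloproteinase known to be raised in beta6 null macrophages, then has a difference of 4.31 between beta6 null and wild type. If the ratio were inverted, every sign would turn. A ratio to a reference compares groups for 1 gene and does not rank the genes against each other. In bulk RNA, fewer cells of a type and less RNA per cell cannot be told apart.

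The 9 measured genes lie on 4 chromosomes, and several are neighbours in the order of protein-coding genes of the RefSeq annotation. Clec10a stands next to Mgl2 on chromosome 11, where both are known as close copies of each other, and whether the Clec10a probe also binds Mgl2 RNA was not tested. Clec4n, Clec4d and Clec4e follow each other on chromosome 6, with Clec4b2 between them and Clec4a2. Clec7a, also on chromosome 6, lies between Clec1a and Olr1, a lectin-type scavenger receptor described further on. Cd209a, on chromosome 8, has the family members Clec4g and Cd209e on its sides.

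Promoter sequence was at hand for 8 of the 10 genes (RefSeq, GRCm38.p6), among them Mgl2, which has no probe. Clec10a and Clec4n had no promoter entry, so the counts below do not cover them. The 250 bases before the first transcript start listed for each of the 8 genes were searched on both strands. The letters GAGGAA, a core that the myeloid factor PU.1 is known to bind, occurred in 6 of 8, against 23.1% of 27025 genes. TGANTCA, the core of an AP-1 site, occurred in 0 of 8, against 6.87% of genes, and CAGACA, a SMAD core, in 0 of 8, against 17.1%. The Mgl2 window starts from an internal transcript start, and 232 of its bases, the match among them, lie inside the gene as annotated. Without it 5 of 7 windows held GAGGAA. The Clec7a window has 6 bases inside the gene. As there were no matches of the other motifs, none overlapped with GAGGAA. Below are 4 of these promoters, of genes whose values within groups were correlated, as described further on. They are written 5′ to 3′ on the strand of the gene, with GAGGAA or its reverse complement in capitals. They lie at chr2:14229164-14229413 (plus strand), chr6:123289872-123290121 (minus strand), chr6:129472780-129473029 (minus strand) and chr6:123122440-123122689 (plus strand).
Mrc1: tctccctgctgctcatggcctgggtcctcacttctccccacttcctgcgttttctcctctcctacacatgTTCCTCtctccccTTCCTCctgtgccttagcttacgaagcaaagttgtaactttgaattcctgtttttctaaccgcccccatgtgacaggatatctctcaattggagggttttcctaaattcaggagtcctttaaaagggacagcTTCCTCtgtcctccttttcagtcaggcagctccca
Clec4e: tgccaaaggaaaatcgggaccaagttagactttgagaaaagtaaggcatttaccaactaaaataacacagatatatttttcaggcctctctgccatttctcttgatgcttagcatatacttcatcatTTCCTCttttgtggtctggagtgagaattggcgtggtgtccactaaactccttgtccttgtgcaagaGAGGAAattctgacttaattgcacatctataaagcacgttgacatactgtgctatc
Clec7a: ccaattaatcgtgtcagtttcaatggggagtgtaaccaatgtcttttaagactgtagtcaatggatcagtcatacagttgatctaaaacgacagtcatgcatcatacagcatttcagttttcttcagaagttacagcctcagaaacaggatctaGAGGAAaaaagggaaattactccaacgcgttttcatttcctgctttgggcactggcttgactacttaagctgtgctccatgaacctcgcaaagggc
Clec4a2: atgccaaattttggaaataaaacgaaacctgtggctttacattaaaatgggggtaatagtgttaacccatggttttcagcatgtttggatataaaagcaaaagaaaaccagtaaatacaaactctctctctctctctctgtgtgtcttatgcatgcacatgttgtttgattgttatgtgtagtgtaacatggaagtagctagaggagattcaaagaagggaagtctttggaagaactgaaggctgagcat
Mrc1 held 3 matches, Clec4e 2, Clec7a 1 and Clec4a2 none. A match describes these letters only and says nothing of binding.

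Clec10a, the macrophage galactose-type lectin known to bind terminal galactose and N-acetylgalactosamine and to mark macrophages activated by interleukin-4, was the member that rose in beta6 null macrophages. It stood at 1.72, 3.76, 2.74, 3.17 and 3.21 on the 5 beta6 null arrays, against 0.01, -0.06, -2.54 and 0.41 on the 4 wild type arrays with a value. The lowest beta6 null array lay above the highest wild type array. Group means were 2.92 ± 0.76 in beta6 null (SD, n = 5) and -0.55 ± 1.34 in wild type (SD, n = 4). The difference was 3.46 (SE 0.60, 95% interval 2.17 to 4.76), or 11.04-fold, with an adjusted p of 0.0133 by limma over all features. An exact two-sided permutation test over these arrays gave p = 0.0159, the smallest that 5 against 4 arrays allow. It was 0.0238 after adjustment over the 3 comparisons of Clec10a, with none over genes. Any gene without overlap gives the smallest p its arrays allow, and 5.12% of all features had no overlap here. Clec10a was chosen with its call known.

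The size of this rise rested in part on wild type replicate 4, the array at -2.54. Without it the difference was 2.80, with an adjusted p of 0.0225. Sample titles end in a suffix of 1 or 2 whose meaning the labels do not give. Within suffix 1 the Clec10a difference was 2.84 (4 beta6 null arrays against 1 wild type array, adjusted p = 0.348), and within suffix 2 it was 3.94 (1 against 3, adjusted p = 1). In each a lone array is assumed to vary like those of the other groups. With the suffix as a block it was 3.51, with an adjusted p of 0.0393.

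Xist, the X-linked RNA of female cells, stood higher on 4 of 5 beta6 null arrays than on every wild type array, and the labels do not give the sex of the mice. It ran from -2.46 to 0.88 in beta6 null, against -4.14 to -2.37 in wild type. Beta6 null replicate 4, at -2.46 for Xist and so within the wild type range, had Clec10a at 3.17, but it is 1 array. On the others Xist and group run together, so sex and genotype cannot be told apart here. With the level of Xist as a covariate the Clec10a difference was 3.48 (SE 0.98, against 0.60 without it), but its adjusted p was 0.426. In that fit 0 of 13273 features passed.

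In beta6 null with TGFb1, Clec10a stood at 1.48, 1.10, -0.07, -0.09 and -0.02, below all 5 beta6 null arrays. The mean was 0.48 ± 0.75 (SD, n = 5), against 2.92 in beta6 null. The difference of -2.44 (SE 0.57, 95% interval -3.66 to -1.22), 5.42-fold down, had an adjusted p of 0.0684 by limma and did not pass. The exact permutation test gave p = 0.00794, the smallest that 5 against 5 arrays allow, and 0.0238 after adjustment over the 3 comparisons. That p too follows from the lack of overlap, which 8.26% of all features showed here, and was not adjusted over genes. The difference was -2.53 within suffix 1 (3 arrays with TGFb1 against 4 beta6 null arrays) and -2.48 within suffix 2 (2 against 1). Xist ran from -3.48 to -2.27 in beta6 null with TGFb1, and with its level as a covariate the Clec10a difference was -2.46, with an adjusted p of 0.56. The fit passed the threshold in some alternatives, such as -2.85 with array weights (adjusted p = 0.0154), and without wild type replicate 2 or replicate 4 (-2.44 in both, adjusted p = 0.0484 and 0.0317).

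Against wild type, beta6 null with TGFb1 overlapped in Clec10a: 2 of its arrays lay above all wild type arrays and the other 3 among them. The difference was 1.03 (SE 0.60, 95% interval -0.27 to 2.32, adjusted p = 0.82), and the exact permutation test gave p = 0.302. Without wild type replicate 4 it was 0.36 (adjusted p = 0.935), and the medians were -0.02 in beta6 null with TGFb1 and -0.03 in wild type. The order of the Clec10a means was beta6 null highest, then beta6 null with TGFb1, then wild type, and the last 2 did not differ beyond their spread. Beta6 null is in both of the first comparisons, so a high or low level in that group moves both.

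**Figure D1:**
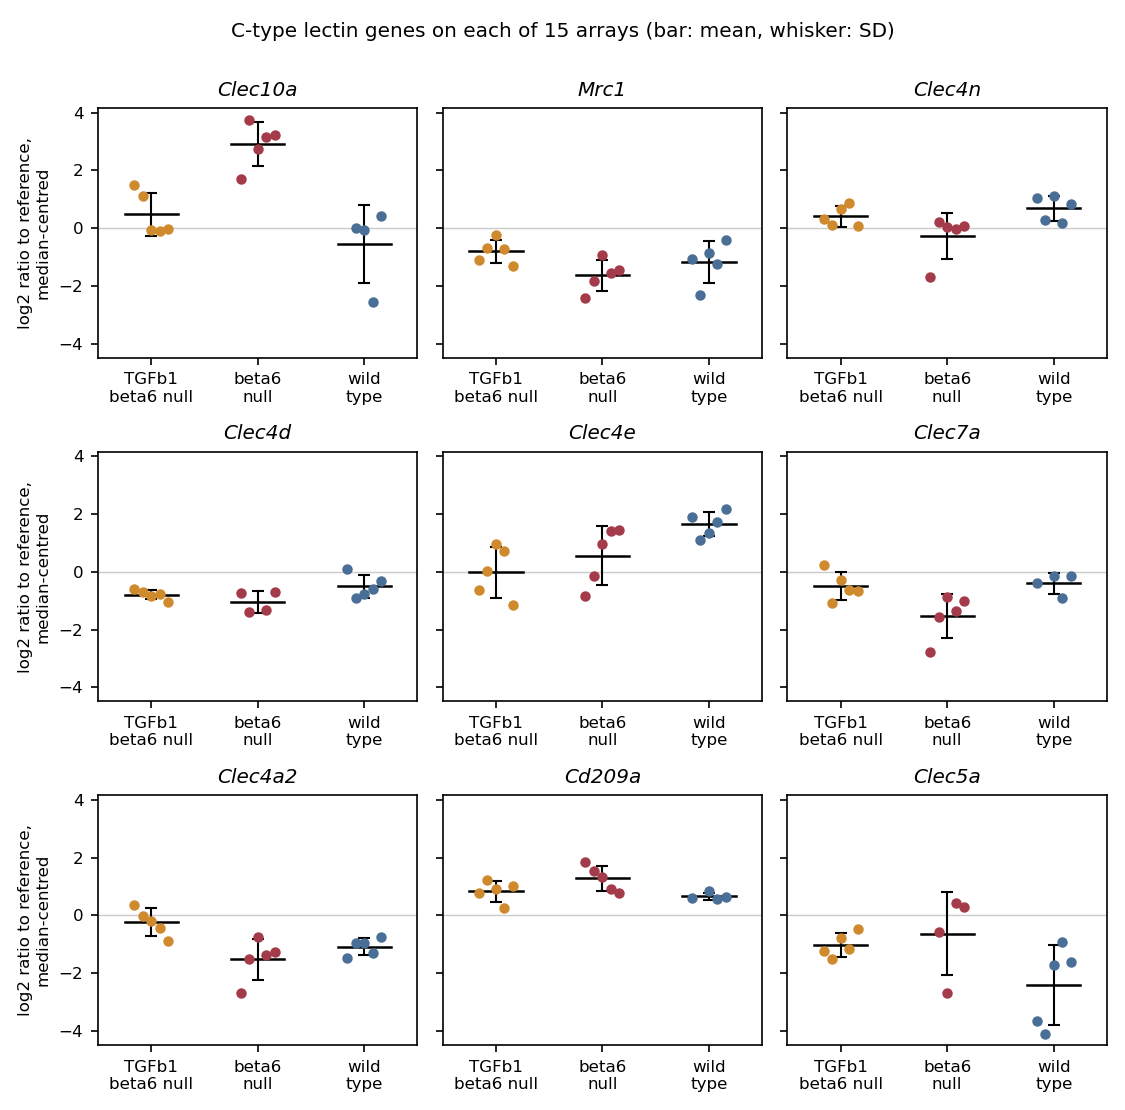
Centred log2 ratio to the reference (y axis) of the 9 measured lectin genes on each array of beta6 null with TGFb1, beta6 null and wild type. Each point is 1 array, the bar is the group mean and the whisker its SD. Clec10a sits between 1.72 and 3.76 in beta6 null, above all arrays of the other groups, whereas most other genes overlap between groups.

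Mrc1 and Cd209a belong with receptors for mannose-rich sugars. Mrc1, the mannose receptor CD206, which alveolar macrophages are known to carry in abundance, had values of -1.09, -0.68, -0.24, -0.71 and -1.29 in beta6 null with TGFb1, -2.41, -1.82, -0.92, -1.54 and -1.46 in beta6 null, and -1.06, -2.31, -0.85, -1.22 and -0.39 in wild type. The groups overlapped in each pair. Its difference was -0.46 (SE 0.37, adjusted p = 0.654) in beta6 null against wild type, and 0.83 (SE 0.37, adjusted p = 0.313) in beta6 null with TGFb1 against beta6 null. Neither passed, and in suffix 1 alone the difference between beta6 null and wild type was 0.01.

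Cd209a, a mouse relative of human DC-SIGN known from dendritic cells derived from monocytes, spread least in wild type of the 9 genes. Its values were 0.78, 1.24, 0.90, 0.25 and 1.02 in beta6 null with TGFb1, 1.85, 1.54, 1.33, 0.92 and 0.78 in beta6 null, and 0.62, 0.85, 0.57 and 0.63 on the 4 wild type arrays with a value. Of the beta6 null arrays, 4 lay above all wild type arrays and 1 lay among them. The difference of 0.61 between beta6 null and wild type (SE 0.29, adjusted p = 0.444) and that of -0.45 between beta6 null with TGFb1 and beta6 null (SE 0.28, adjusted p = 0.476) did not pass.

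The next group holds 4 activating receptors that use Syk, and Clec5a follows separately. They are Dectin-1 (Clec7a), which binds fungal beta-glucans, Dectin-2 (Clec4n), which binds mannans, Mincle (Clec4e), which binds mycobacterial cord factor, and its partner MCL (Clec4d). In beta6 null against wild type the differences of these 4 were negative, from -1.13 to -0.54, and none passed. Clec5a, which pairs with DAP12 and is described further on, differed the other way, by 1.78 (adjusted p = 0.347, limma). Clec7a came nearest by unadjusted p. Its values were 0.23, -1.07, -0.27, -0.64 and -0.66 in beta6 null with TGFb1, -2.79, -1.57, -0.88, -1.36 and -1.01 in beta6 null, and -0.39, -0.14, -0.92 and -0.13 in wild type, where 1 array gave none. Only the highest beta6 null array reached into the wild type range. The Clec7a differences were -1.13 in beta6 null against wild type (SE 0.40, adjusted p = 0.276, limma) and 1.04 in beta6 null with TGFb1 against beta6 null (SE 0.38, adjusted p = 0.212).

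Clec4n had 0.31, 0.11, 0.68, 0.87 and 0.08 in beta6 null with TGFb1, -1.69, 0.20, 0.05, -0.01 and 0.08 in beta6 null, and 1.05, 0.29, 1.13, 0.19 and 0.83 in wild type. Beta6 null replicate 1 stood far below the other 4 arrays of its group, which lay between -0.01 and 0.20. The difference between beta6 null and wild type was -0.97 (SE 0.37, adjusted p = 0.308), and -0.62 without beta6 null replicate 1. In beta6 null with TGFb1 against beta6 null it was 0.68 (SE 0.37, adjusted p = 0.403), and 0.33 without that array. Clec4d, the partner of Mincle, was the member whose means lay closest together, at -0.79 ± 0.17 in beta6 null with TGFb1 (SD, n = 5), -1.04 ± 0.38 in beta6 null (SD, n = 4) and -0.50 ± 0.39 in wild type (SD, n = 5). None of its 3 differences passed.

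Clec4e ran another way from Clec7a in the mice with TGFb1. Its values were -0.63, 0.04, 0.97, 0.71 and -1.13 in beta6 null with TGFb1, -0.85, -0.16, 0.96, 1.41 and 1.46 in beta6 null, and 1.88, 1.11, 1.34, 1.74 and 2.17 in wild type. All 5 arrays of beta6 null with TGFb1 lay below all 5 wild type arrays. That difference was -1.66 (SE 0.50, 95% interval -2.72 to -0.59), with an unadjusted p of 0.00477 by limma but an adjusted p of 0.757. Between beta6 null and wild type the Clec4e difference was -1.08 (SE 0.50, adjusted p = 0.426), with overlap.

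Clec4a2 encodes DCIR, an inhibitory lectin receptor with a motif that recruits phosphatases. It had 0.37, -0.01, -0.19, -0.44 and -0.90 in beta6 null with TGFb1, -2.67, -1.50, -0.75, -1.37 and -1.27 in beta6 null, and -1.48, -0.94, -0.96, -1.29 and -0.73 in wild type. The beta6 null and wild type arrays were interleaved, and 4 of 5 arrays with TGFb1 exceeded every beta6 null and wild type array. Clec4a2 had a difference of 1.28 in beta6 null with TGFb1 against beta6 null (SE 0.35, 95% interval 0.53 to 2.02, adjusted p = 0.102), 0.84 in beta6 null with TGFb1 against wild type (SE 0.35, adjusted p = 0.787) and -0.43 in beta6 null against wild type (SE 0.35, adjusted p = 0.655). The first passed with array weights, at 0.97 (adjusted p = 0.0336), and where only features with values on all 15 arrays were tested, at 1.28 (adjusted p = 0.0493).

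Clec5a, or MDL-1, pairs with the adaptor DAP12 and is known to bind flaviviruses. It scattered more than any other of the 9 genes in beta6 null and in wild type. Its values were -1.24, -1.52, -0.79, -1.17 and -0.46 in beta6 null with TGFb1, -0.56, -2.67, 0.43 and 0.29 in beta6 null, and -3.66, -4.09, -1.73, -0.93 and -1.61 in wild type. The 2 lowest values of all were wild type arrays. The difference between beta6 null and wild type, 1.78 (SE 0.71, 95% interval 0.24 to 3.31, adjusted p = 0.347), did not pass.

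Over the 9 measured genes, 1 rose and 0 fell in beta6 null against wild type, where 0.949% of the 13273 features passed. That 1 gene is Clec10a, which ranked 53 by p among all features. It was also the 1 gene of the 9 whose values did not overlap between these groups, as for 5.12% of all features. At an unadjusted p under 0.05 were 5 of the 9 genes and 1523 of 13273 features. The median difference of the 9 genes was -0.463, and that of all features -0.047.

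Of the 9 genes, 0 passed by limma in beta6 null with TGFb1 against beta6 null, and 0.708% of all features passed. At an unadjusted p under 0.05 were 4 of 9 genes and 1986 of 13273 features. Clec10a was again the 1 gene with no overlap, as for 8.26% of features. The median difference was 0.245, and that of all features 0.117. Set against wild type, beta6 null with TGFb1 gave 0 calls: 0 of 9 and 0.00% of features passed, with 2 of 9 and 833 of 13273 at an unadjusted p under 0.05. Clec4e was the 1 gene of 9 with no overlap, as for 2.88% of features. These 3 comparisons share their groups, so their values are not independent of each other.

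**Figure D2:**
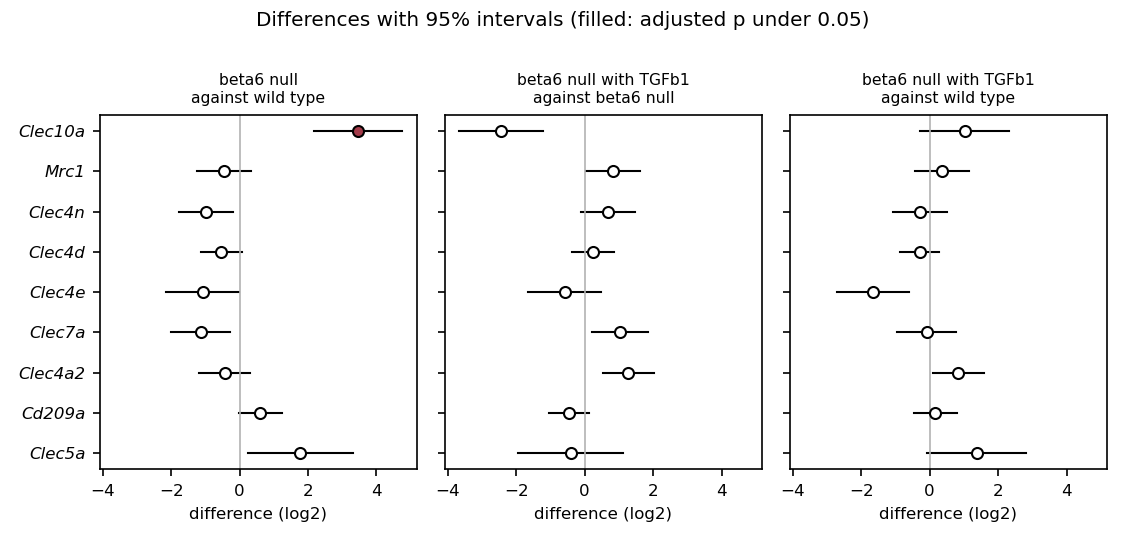
Difference in centred log2 ratio (x axis) of the 9 measured genes in each of the 3 comparisons, with 95% intervals of the limma fit. The filled point, Clec10a at 3.46 in beta6 null against wild type, is the 1 value with an adjusted p under 0.05. The interval of Clec10a in beta6 null with TGFb1 against beta6 null, -3.66 to -1.22, leaves out 0, as do those of several others whose adjusted p did not pass.

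The correlation of Clec10a over arrays with the 8 others ran from -0.503 (Clec4d, 13 arrays) to 0.519 (Cd209a, 13 arrays), and was above 0 for Cd209a and Clec5a (0.290) and below 0 for the other 6. After the group means were taken off, the value with Cd209a was -0.019. Within groups it was 0.619 with Clec4a2 and 0.570 with Clec7a, where the values over all arrays were -0.219 and -0.382, and for Clec4n too it was above 0 within groups and below 0 over all arrays (-0.325). Mrc1, Clec4n, Clec4e, Clec7a and Clec4a2 were grouped after their values were seen. Their 10 pairs had a median r of 0.615, with 9 of 10 above 0, and within groups a median of 0.632, with 10 of 10 above 0. Clec4e was the loosest of them over all arrays, at -0.026 with Clec4a2, 0.335 with Mrc1 and 0.343 with Clec7a. Clec7a and Clec4n had r = 0.852 and Clec7a and Clec4a2 r = 0.763, each over 14 arrays. These are the genes whose promoters are printed above, with Clec4n, for which no promoter is shown. Genes measured on 1 array share its hybridisation. Beta6 null replicate 1, 1 of the 2 arrays with the widest values, was the lowest of its group for these 5 genes and for Clec10a. Wild type replicate 4, the lowest of its group for Clec10a, was also the lowest for Clec7a and Clec4n. Correlations within groups without these arrays were not computed, so those of Clec10a and those among the 5 genes may rest on them.

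The genes whose pattern was most like that of Clec10a were ranked by Pearson r of centred log2 ratios, over at least 12 arrays in common and among 9461 genes. Mmp13, a collagenase, came first with r = 0.924 over 13 arrays, and 0.808 within groups. It averaged 1.23 in beta6 null with TGFb1, 4.30 in beta6 null and -0.39 in wild type, and its lowest value, -4.91, came from wild type replicate 4, the array where Clec10a was lowest. Next were Dpp4, a cell-surface peptidase (0.893), Cd93, a lectin-domain receptor (0.885), Ninj1, a protein of membrane rupture (0.883), Fabp5, a fatty acid-binding protein (0.881), and Wfdc18, a secreted protein with a whey acidic protein domain (0.875). Prxl2b (0.865), Marcks (0.864), Pmp22 (0.858) and Eps8 (0.856) made up the 10. Within groups the r of these 10 with Clec10a ran from 0.343 for Dpp4 to 0.808 for Mmp13, so part of the likeness lies in the group means. They were measured on the same arrays as Clec10a, and the list is a description.

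**Figure D3:**
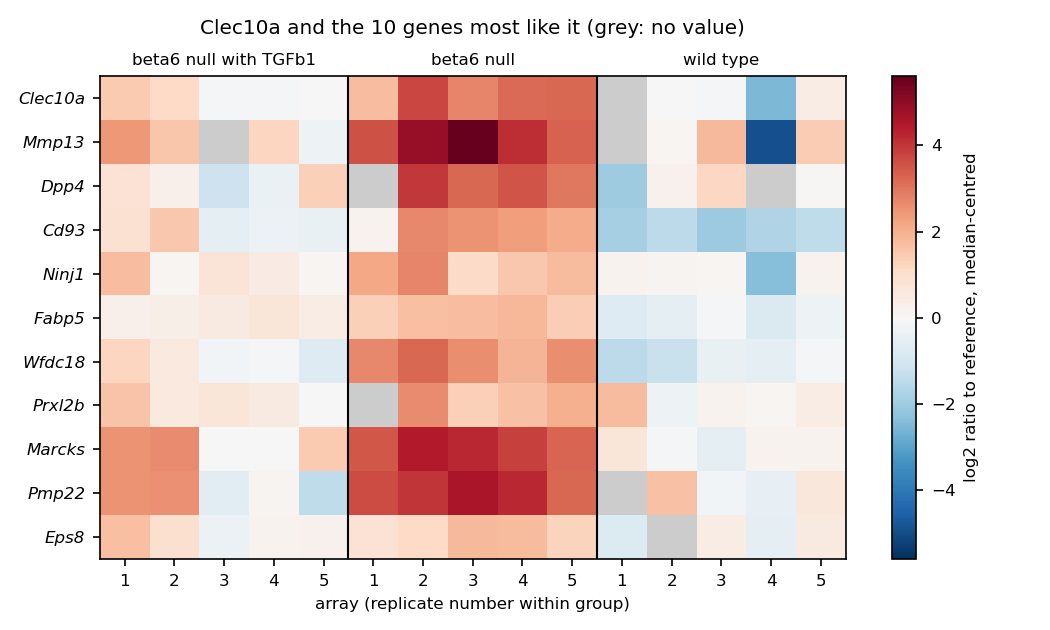
Centred log2 ratio (colour scale) of Clec10a and the 10 genes most like it on each of the 15 arrays, ordered by r, with arrays of beta6 null with TGFb1, beta6 null and wild type from left to right. Grey cells had no value. Beta6 null arrays are mostly red, Mmp13 and Clec10a are both lowest on wild type replicate 4, and replicates 1 and 2 of beta6 null with TGFb1 are redder than the other 3 in several rows.

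Among other genes with a C-type lectin domain, 50 of 69 listed were tested. In beta6 null against wild type 1 rose and 3 fell, with a median difference of 0.030 over the 50 genes. For this and the later lists, 0.949% of all features passed in beta6 null against wild type. With TGFb1 0.708% passed against beta6 null and 0.00% against wild type. At an unadjusted p under 0.05 by limma were 1523, 1986 and 833 of 13273 features, in the same order. Cd93, a receptor known for a role in clearing dying cells, rose by 3.67 (SE 0.49, adjusted p = 0.00127). It stood at 0.20, 2.70, 2.52, 2.33 and 2.08 in beta6 null, against -1.88, -1.47, -2.04, -1.69 and -1.43 in wild type, with no overlap. Olr1, the receptor LOX-1 for oxidised low-density lipoprotein and the neighbour of Clec7a, fell by 3.06 (SE 0.31, adjusted p = 1.83e-04), to between -3.96 and -2.65 in beta6 null, against -0.96 to 0.13 in wild type. Ly75, the endocytic receptor DEC-205, fell by 2.72 (SE 0.36, adjusted p = 0.00117), and Cd302, a transmembrane lectin receptor of myeloid cells, fell by 1.60 (SE 0.26, adjusted p = 0.00628). Beta6 null arrays lay below all wild type arrays for both Ly75 and Cd302.

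Of these 50 genes, 2 rose and 0 fell in beta6 null with TGFb1 against beta6 null. Olr1 rose by 2.84 (SE 0.31, adjusted p = 0.00114), with values of -0.56, -1.10, -0.16, -0.08 and -0.74 in beta6 null with TGFb1, above all beta6 null arrays. Cd302 rose by 1.73 (SE 0.26, adjusted p = 0.00621). Ly75 had a difference of 1.30 (adjusted p = 0.104) and Cd93 one of -1.74 (adjusted p = 0.109). Neither passed, and in Ly75 the group with TGFb1 lay between beta6 null and wild type, at -2.08 against -3.38 in beta6 null and -0.66 in wild type. Against wild type 0 of 50 passed in beta6 null with TGFb1, with 5 at an unadjusted p under 0.05. Of the rest, Clec2d, Acan, Cd248 and Cd69 had the smallest p in beta6 null against wild type, with differences of -1.76, -1.34, 2.17 and -0.96 and adjusted p of 0.417 to 0.503.

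**Figure D4:**
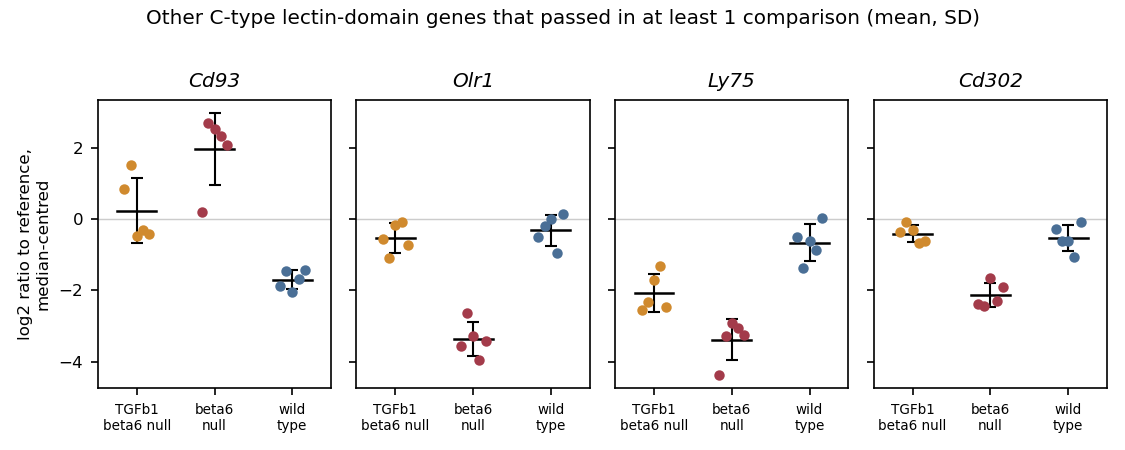
Centred log2 ratio (y axis) of the 4 other lectin-domain genes that passed in at least 1 comparison, on each array of beta6 null with TGFb1, beta6 null and wild type. Points are arrays, bars are means and whiskers SDs. Cd93 is higher in beta6 null than on wild type arrays, while Olr1, Ly75 and Cd302 are lower, and Olr1 and Cd302 with TGFb1 lie in or near the wild type range.

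Of the signalling genes behind these receptors (adaptors, Syk-pathway kinases, CARD9-complex and NF-kB genes), 34 of 51 listed were tested. Fgr, a Src-family kinase of myeloid cells, fell by 2.11 in beta6 null against wild type (SE 0.45, adjusted p = 0.0493), and no other gene of the list passed in that comparison. Its means were -0.57 ± 0.62 in beta6 null with TGFb1 (SD, n = 5), -2.47 ± 0.90 in beta6 null (SD, n = 4) and -0.36 ± 0.17 in wild type (SD, n = 4). Lsp1, an actin-binding protein of leukocytes, differed by -2.12 (adjusted p = 0.159), Relb, of the noncanonical NF-kB route, by -1.59 (0.347), Nfatc2, a calcineurin-controlled factor, by 0.93 (0.39) and Pycard, the inflammasome adaptor, by 0.93 (0.347). With TGFb1 against beta6 null 0 of 34 passed, with 3 at an unadjusted p under 0.05, and against wild type 0 passed, with 2. The median difference of the list was -0.066 in beta6 null against wild type.

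Clec10a, Mgl2 and Mrc1 are often used as markers of alternative activation, the state that interleukin-4 and interleukin-13 induce. Without them, 29 of 36 listed genes of that state were tested, and in beta6 null against wild type 1 rose and 2 fell, with a median difference of 0.229. Mmp12, macrophage elastase, rose by 4.31 (SE 0.42, adjusted p = 1.83e-04). The direction of the ratios was read from this gene, so that it rose is no separate result. Egr2, a transcription factor that interleukin-4 induces in mouse macrophages, fell by 2.95 (SE 0.32, adjusted p = 2.60e-04), and Flt1, known as a VEGF receptor, fell by 4.16 (SE 0.54, adjusted p = 0.00117). Irf4, a factor downstream of interleukin-4, differed by 1.26 (adjusted p = 0.147), Pparg by -1.14 (0.191), the decoy receptor Il1r2 by 2.89 (0.223), the receptor chain Il13ra1 by -1.66 (0.321) and Matk, a kinase, by 1.03 (0.524), and none of these passed. Genes of the list went in both directions, with 18 of 29 differences above 0, and a part of interleukin-4 was not tested.

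Pparg, a nuclear receptor needed by alveolar macrophages, rose by 1.84 in beta6 null with TGFb1 against beta6 null (SE 0.35, adjusted p = 0.0332), and Mmp12 fell by 2.31 (SE 0.40, adjusted p = 0.02). No other gene of the alternative activation list passed there, and 0 of 29 passed in beta6 null with TGFb1 against wild type, with 4 at an unadjusted p under 0.05.

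Markers of cells that the samples may hold were also compared, and their lists differed in how they moved. Of alveolar macrophage markers, 26 of 34 were tested, and their mean on an array ran from -0.75 to -0.33 in beta6 null with TGFb1, -1.73 to -1.47 in beta6 null and -0.79 to -0.16 in wild type. In beta6 null against wild type 1 of them rose (Fabp5) and 6 fell (Fabp1, Flt1, Olr1, Il18, Krt19 and Cidec). With TGFb1 against beta6 null 5 rose (Olr1, Il18, Fabp1, Krt19 and Pparg) and 1 fell (Fabp5), and against wild type 0 passed, with 4 at an unadjusted p under 0.05. Olr1, Flt1, Pparg and Krt19 also stand in other lists used here.

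Dendritic cell and monocyte markers, among which Clec10a and Cd209a are often counted, averaged -0.39 to 0.26 in beta6 null with TGFb1, 0.31 to 0.85 in beta6 null and -0.30 to 0.21 in wild type over 23 tested of 31. In beta6 null against wild type Dpp4 rose by 3.56 (adjusted p = 0.0218) and Ly75 fell, and with TGFb1 against beta6 null Dpp4 fell by 3.25 (adjusted p = 0.0337) and Itgae, an integrin subunit of some dendritic and T cells, fell by 3.89 (adjusted p = 0.0332). Against wild type 0 passed with TGFb1, with 3 at an unadjusted p under 0.05. That number was 7 in beta6 null against wild type and 7 with TGFb1 against beta6 null. MHC class II genes averaged 0.02 to 0.55 in beta6 null with TGFb1, 0.03 to 1.16 in beta6 null and -0.69 to 0.15 in wild type, and H2-Aa and H2-Ea rose in beta6 null against wild type, by 1.82 and 2.50 (adjusted p = 0.0409 and 0.014). With TGFb1, 0 of 10 passed against beta6 null and 0 against wild type, with 4 and 2 at an unadjusted p under 0.05. The part of such cells in the Clec10a values was not tested, and a ratio to a reference does not show whether a marker is absent.

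Interstitial macrophage markers (11 tested of 20) averaged -0.56 to 0.68 in beta6 null with TGFb1, 0.03 to 0.54 in beta6 null and -0.47 to -0.03 in wild type. The beta6 null means thus lay above all wild type arrays and overlapped with those with TGFb1. Of the 11 differences between beta6 null and wild type, 9 were above 0. These markers had 0 calls in all 3 comparisons. At an unadjusted p under 0.05 by limma were 3, 3 and 0, in the order beta6 null against wild type, with TGFb1 against beta6 null and with TGFb1 against wild type. For the lists that follow, the array means of all 3 groups overlapped. T, NK and B cell markers (15 of 23) had 0 calls, with 3, 2 and 0, and eosinophil, basophil and mast cell markers (11 of 15) 0 calls, with 0, 2 and 1. Of neutrophil markers (9 of 15) S100a8 rose by 2.13 in beta6 null against wild type (adjusted p = 0.00148), and none passed in the other comparisons, with 1 and 2 at an unadjusted p under 0.05. Of lung epithelium markers (17 of 23) Sftpc rose and Epcam and Krt19 fell in beta6 null against wild type, and Epcam and Krt19 rose with TGFb1 against beta6 null. Against wild type 0 lung epithelium markers passed with TGFb1, with 1 at an unadjusted p under 0.05.

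**Figure D5:**
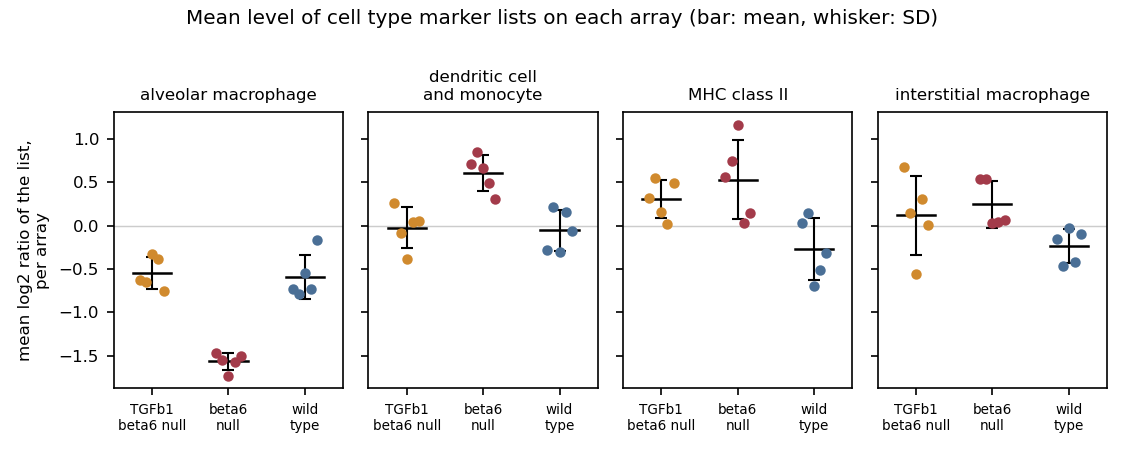
Mean centred log2 ratio of each marker list (y axis) on each array of beta6 null with TGFb1, beta6 null and wild type, for alveolar macrophage, dendritic cell and monocyte, MHC class II and interstitial macrophage markers. Points are arrays, bars are means and whiskers SDs. Alveolar macrophage markers lie at -1.73 to -1.47 in beta6 null, below both other groups, and dendritic cell and monocyte markers lie at 0.31 to 0.85, above both. Interstitial macrophage markers in beta6 null, at 0.03 to 0.54, lie above wild type and overlap the group with TGFb1.

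The arrays themselves differed in quality. Between 11590 and 16457 of 17195 probes had a value, the SD over probes ran from 0.841 to 2.008, and arrays correlated with each other at 0.194 to 0.576. Beta6 null replicate 1 and wild type replicate 2 had the widest values. Without these 2 arrays the Clec10a difference was 3.95 in beta6 null against wild type (adjusted p = 0.013) and -2.74 in beta6 null with TGFb1 against beta6 null (adjusted p = 0.037). Files with signals per spot were not used here, so the depth behind each ratio is unknown and the number of arrays limits the precision.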

How the data were processed

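RNA of 15 samples was measured on 2-colour arrays against a common reference. The authors deposited 1 log ratio per probe and array, and log2 was assumed. Values as large as 9.49 on a base of 10 would exceed a 16-bit scanner, but this does not settle between log2 and the natural logarithm. Every fold value given here depends on the base. The scanner, dyes, background correction and normalization are not given in the sources used here. Of 17225 probes, 30 control spots were left out, and 13972 of the rest had 1 gene symbol in the platform annotation.

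Arrays were centred on their medians and probes of a gene averaged. The 13273 features with a value on 3 or more arrays in each group were fitted with limma 3.58.1 (R 4.3.3; lmFit and eBayes, 3 group means). Benjamini-Hochberg adjustment ran over all of them, with a threshold of 0.05. The fit was also run on simulated data, with independent noise of the same spread on every array for a given feature. The real arrays differed in spread, so that run checks the code and not how well the fit suits these arrays. Groups came from the labels, and no label pairs arrays.

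The members, lists and tests were chosen with earlier results of these data known, the call of Clec10a among them, so they are no independent support. Named genes are the members, called genes of each list, up to 4 uncalled genes of each pathway list with the smallest p in beta6 null against wild type, and the 10 genes most like Clec10a. Alternatives were 15 fits leaving out 1 array each and 14 others, covering normalization, array weights, title suffix, Xist and missing values.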

Additional observations from a re-analysis of the deposited data

Results flagged for a closer look

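Clec10a on wild type replicate 4 stood at -2.54, far below the other 3 wild type values, which lay between -0.06 and 0.41. Clec4n on beta6 null replicate 1 stood at -1.69, far below the other 4 beta6 null arrays, which lay between -0.01 and 0.20. In each case the gap to the nearest array exceeded the 95% limit of Dixon's test for a group of that size. Chance marks about 1 in 20 groups in this way, and 27 groups (9 genes in 3 groups) were examined. Without wild type replicate 4, the Clec10a difference between beta6 null and wild type was 2.80, against 3.46 with it. Without beta6 null replicate 1, the Clec4n difference between these groups was -0.62, against -0.97 with it.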

How the results depend on the processing

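Of 768 values of member differences under 29 alternatives, 742 kept their direction and their side of the threshold, 7 were no longer past it, 7 came past it and 12 turned sign, and causes were not tested. Clec10a in beta6 null against wild type was positive in all 28 alternatives that gave a value, but not past the threshold under quantile normalization (3.43, adjusted p = 0.0623), equal spread of the arrays (3.31, 0.0988), only the 10 arrays of the groups compared (3.46, 0.0766), title suffix 1 only (2.84) or 2 only (3.94), without the 2 arrays whose titles are numbered apart (3.40) and with Xist as a covariate (3.48). In these 7, 0 members were called, as where only features with values on all 15 arrays were tested, which leaves out Clec10a. Leaving out 1 array at a time, it kept its call, with differences of 2.80 to 3.78. In beta6 null with TGFb1 against beta6 null, Clec10a passed with array weights (-2.85, 2 members called), with only the 10 arrays (-2.44, 1 called) and without the 2 widest arrays (-2.74, 1 called), and 1 member was called with values on all 15 arrays. Leave-one-out gave differences of -2.74 to -2.23 and 0 to 1 members called. Signs turned for Mrc1 in beta6 null against wild type (0.01, suffix 1), and in beta6 null with TGFb1 against beta6 null for Clec4d (-0.15 quantile, -0.03 equal spread, -0.13 suffix 2), Clec4e (0.23, suffix 1) and Cd209a (0.00 equal spread, 0.12 suffix 2). Against wild type they turned for Mrc1 (-0.37, suffix 2) and Clec7a (0.04 with suffix as a block, 0.18 in suffix 2, and -0.26 to 0.06 over leave-one-out fits). Features called in beta6 null against wild type numbered 126, against 422 with array weights, 76 under quantile normalization, 61 with equal spread, 45 with only the 10 arrays, 66 without the arrays numbered apart, 66 with the suffix block, 63 to 154 over leave-one-out fits and 0 with Xist or within 1 suffix. With TGFb1 against beta6 null they numbered 94, against 620 with array weights, 287 without the 2 widest arrays, 220 with values on all 15 arrays, 27 without the arrays numbered apart, 43 with the suffix block, 15 under quantile normalization, 11 with equal spread, 23 to 311 over leave-one-out fits and 0 with Xist or within 1 suffix. No paired analysis was possible because no label pairs arrays across groups. Signal over background was not analysed here.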
